A study of Mus musculus with 12 samples.

Results

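Colony-stimulating factors are secreted proteins that govern the survival, growth and activation of macrophages, granulocytes and their relatives. The genes of these factors and of their receptors were taken from the deposited table by gene symbol, and the rows of Csf1, Csf2, Csf3, Csf1r, Csf2ra, Csf2rb, Csf2rb2 and Csf3r were all found, 8 of 14541 genes listed. They comprise 3 ligands and 5 receptor subunits. The 12 libraries came from wild-type mouse microglia, the resident macrophages of the brain, isolated from forebrains of pups of postnatal days 7 to 9 with magnetic beads against CD11b, a surface protein that other myeloid cells such as neutrophils and monocytes also carry. Wells held 40000 to 80000 cells, which were collected 6 h after treatment. The Hevin group received recombinant Hevin, the astrocyte-secreted product of Sparcl1, at 500 nM. The LPS group received 50 ng/mL of lipopolysaccharide, a bacterial cell wall component sensed by Toll-like receptor 4, and the Media group received an equal volume of growth medium. Each group held 4 libraries numbered 1 to 4. Whether the 4 are separate animals, cultures or wells is not stated in the labels, and the spread behind each p-value is that between libraries, which may be technical.

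CSF-1 (the product of Csf1) signals through the receptor tyrosine kinase CSF1R, on which microglia depend for survival in the brain. GM-CSF (Csf2) binds a specific alpha chain (Csf2ra) that signals together with the common beta chain (Csf2rb), which the receptors for interleukins 3 and 5 also use, whereas the product of the mouse paralog Csf2rb2 serves the interleukin 3 receptor. G-CSF (Csf3) drives granulocyte production through the receptor encoded by Csf3r, and Csf2 and Csf3 mRNAs are classic examples of transcripts induced by bacterial products.

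On the GRCm38 build (GENCODE M21), Csf1 lies at chr3:107741048-107760469 on the minus strand, Csf2 at chr11:54247271-54249667 on the minus strand and Csf3 at chr11:98701263-98703629 on the plus strand. Csf2ra lies at chr19:61223957-61228429 on the minus strand and Csf3r at chr4:126024550-126044440 on the plus strand. Csf2rb (chr15:78325752-78353847, plus strand) and Csf2rb2 (chr15:78282507-78305721, minus strand) are neighbours, 20030 bases apart. All 8 are protein-coding genes. Exons of Csf2 share 96 bases with the antisense gene Gm12223, and since the use of strand in counting is not given in the sources used here, some of these reads may belong to the partner.

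The 2 beta chain genes are near-identical, and their sequences are shown because they decide how well the reads of one can be told from those of the other. Of 2629 aligned coding bases, 2506 were identical (95.3%). The most different 120-base stretch of the alignment held 22 differences, which are capitalised in the following pair (coding bases 309 to 428 of Csf2rb and 312 to 431 of Csf2rb2, counted from the start codon, from the GENCODE transcripts).
Csf2rb: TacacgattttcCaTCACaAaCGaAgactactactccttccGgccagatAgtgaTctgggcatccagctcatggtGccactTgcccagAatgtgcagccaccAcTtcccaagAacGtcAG
Csf2rb2: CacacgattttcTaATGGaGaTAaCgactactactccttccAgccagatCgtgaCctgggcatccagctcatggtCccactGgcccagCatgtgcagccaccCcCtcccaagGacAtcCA
In contrast, coding bases 2083 to 2324 were the same in both genes over 242 bases, and a read lying wholly in that stretch cannot be assigned to either gene.
Csf2rb and Csf2rb2: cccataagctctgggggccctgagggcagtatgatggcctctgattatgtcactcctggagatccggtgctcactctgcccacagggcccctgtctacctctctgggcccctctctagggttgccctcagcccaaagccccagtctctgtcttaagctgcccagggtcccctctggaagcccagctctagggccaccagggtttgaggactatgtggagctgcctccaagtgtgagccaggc
Of all 100-base windows (the read length) in the transcripts compared, 7.16% of those of Csf2rb and 7.20% of those of Csf2rb2 also occurred in the other gene. The values of the pair are uncertain to the extent that such reads were split or dropped.

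Gene levels were deposited as FPKM, reads per length of the gene and per library size. Whole reads recovered from these values gave a depth of 18343996 to 27361665 reads per library. Of 12 microglia markers 12 were listed, with sums of 607 to 799 FPKM in the Media libraries, of 1009 to 1554 in the Hevin libraries and of 573 to 803 in the LPS libraries. Neutrophil markers (12 of 13 listed) summed to 1981 to 2137 FPKM in the 3 libraries numbered 2 and to 43.3 to 106 in the other libraries, and monocyte markers to 25.7 to 44.2 and 1.82 to 6.41. The markers of endothelial cells (6 of 6 listed) differed by number in every group, from 27.3 to 30.8 in number 1 over 64.3 to 76.6 in number 2 and 95.7 to 109 in number 4 to 145 to 162 in number 3. None of the 8 markers of T, NK, B and mast cells was listed. Where a level falls in bulk RNA, fewer cells of a type and less RNA per cell cannot be told apart.

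Levels per length spanned 3 orders of size in untreated cells. In Media, Csf1 (246 ± 127 FPKM, mean ± SD, n = 4) and its receptor gene Csf1r (239 ± 29.5) were the highest of the family, at percentiles 98.9 and 98.9 of all genes listed, and their ranges overlapped. The receptor chain genes Csf2ra (61.0 ± 12.7 FPKM) and Csf2rb (48.4 ± 5.16) came next, also with overlapping ranges. Csf2rb2 (34.7 ± 4.37), Csf3 (25.8 ± 21.5) and Csf3r (7.47 ± 2.56) followed, where neighbours in the order overlapped. Csf2 was the lowest, at 0.104 ± 0.0873 FPKM and percentile 2.88. Transcripts of all 5 receptor subunits were present in each Media library, that of Csf1r the highest, while Csf2 had at most 4 reads in a library.

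**Figure D1:**
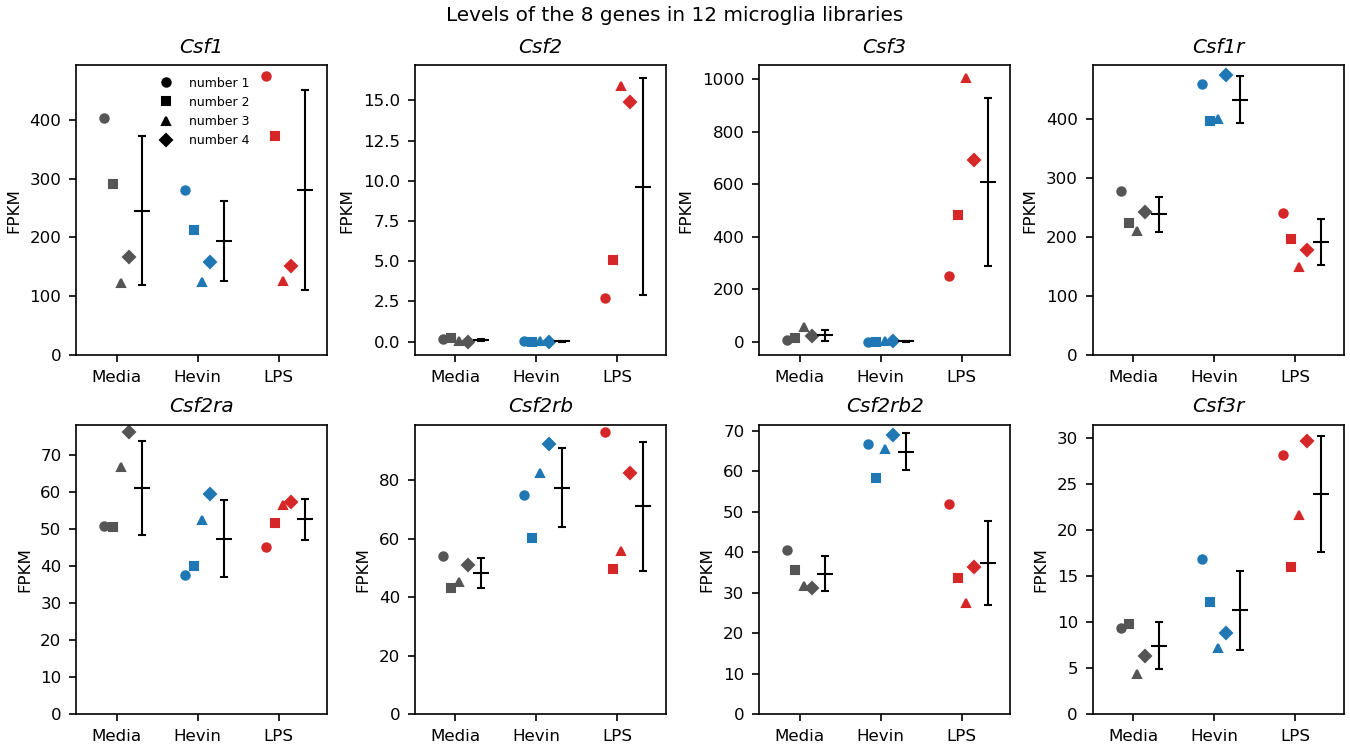
FPKM (y axes, linear, each panel with its own scale) of the 8 genes in the 12 libraries (x axis, treatment group). Symbols mark the replicate number, and black bars give the mean ± SD over 4 libraries. Csf3 and Csf2 stand out in LPS, Csf1r and Csf2rb2 are higher in all 4 Hevin libraries than in any Media library, and Csf1 is ordered by number within every group.

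The 3 comparisons were read from a limma fit of all 12 libraries on log2(FPKM + 1), a scale that understates changes of low genes, over 11242 genes that reached 1 FPKM in 4 or more libraries. Changes are log2 fold changes ± SE with p-values adjusted by Benjamini-Hochberg, and a gene was called at an adjusted p under 0.05. All 8 members passed this filter, Csf2 only through the LPS libraries. Against Media, 2 members were higher and 1 lower in Hevin, where 7.37% of all genes were called (4.27% higher and 3.1% lower). In LPS, 3 members were higher and 0 lower, with 25.8% of all genes called (13.2% and 12.6%). The median log2 fold change of the 8 was 0.21 in Hevin and 0.31 in LPS, beside 0.00 and -0.02 over all genes tested. Libraries of the same number deviated together, and with the number as a block 3 members were higher and 2 lower in Hevin, where 21.4% of all genes were then called (10.8% higher and 10.6% lower). With the block, 4 members were higher and 1 lower in LPS, beside 43.7% of all genes (21.5% and 22.2%). Without scaling factors 3 were higher and 2 lower in LPS, where 736 of the 11242 genes were called higher and 4990 lower. Csf2, whose call was favoured by the filter, is among the members higher in LPS in each of these counts.

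Among the ligands, Csf3 showed opposite changes under the 2 treatments. In Media it stood at 7.15, 15.4, 56.3 and 24.3 FPKM in numbers 1 to 4. In Hevin the values were 1.24, 1.53, 5.46 and 2.34, and in LPS 251, 483, 1004 and 695. The 3 groups did not overlap, as held for 16.6% of all genes between Hevin and Media and for 25.6% between LPS and Media, and Hevin was the lowest and LPS the highest in each number. In LPS Csf3 rose by 4.69 ± 0.57 on the log2 scale (limma adjusted p = 1.15e-04), a 23.6-fold ratio of mean FPKM, which placed it at percentile 99.5 of all genes listed in LPS. In Hevin Csf3 fell by 2.66 ± 0.57 (limma adjusted p = 0.0135, and 3.24e-06 with the replicate block). Within numbers 2, 3 and 4 the Media value was 10.1, 10.3 and 10.4 times the Hevin value, and in number 1 it was 5.76 times that value. The Hevin call was lost with voom on recovered reads (adjusted p = 0.0605) and without the 3 libraries numbered 2 (log2 fold change -2.64, adjusted p = 0.0820).

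The summed astrocyte markers were, like Csf3, lower in Hevin and higher in LPS, at 49.8 to 85.3 FPKM in the Media group, 20.8 to 44.2 in the Hevin group and 112 to 234 in the LPS group. Of the 7 markers, all listed, Gja1, which encodes a gap junction protein, reached 18.7 to 225 FPKM, and the other 6 stayed at or below 7.999 FPKM in every library. Gja1 was lower in Hevin (limma adjusted p = 0.00861) and higher in LPS (adjusted p = 0.00101), whereas Gfap and Slc1a3, the other markers that passed the filter, were at 0.967 and 1.05 times their Media means in Hevin and at 0.882 and 1.34 times in LPS. Neither was called, except Slc1a3 in LPS with the replicate block (adjusted p = 0.0233). The part of astrocytes in the Csf3 result was not tested.

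Csf2 was almost absent outside LPS. Its reads numbered 4, 4, 2 and 0 in Media (0.146, 0.200, 0.0712 and 0 FPKM in numbers 1 to 4) and 1, 0, 2 and 0 in Hevin. LPS libraries held 57, 111, 402 and 254 reads, or 2.69, 5.103, 15.9 and 14.9 FPKM. All 4 LPS libraries were above all others, and numbers 3 and 4 were well above numbers 1 and 2. The log2 fold change against Media was 3.00 ± 0.39 (limma adjusted p = 1.92e-04). Taken as summed reads per scaled library size, the level in LPS was 101 times that in Media, with an exact 95% interval of 54.7 to 212 that covers counting error only. Because Csf2 passed the filter through LPS alone, its call was favoured by the filter. For Hevin against Media the same ratio was 0.275 (0.0486 to 1.07), from 3 against 10 reads, so a difference was not detectable at this depth (log2 fold change -0.11 ± 0.39, limma adjusted p = 0.927). Even in LPS the mean of Csf2, 9.64 ± 6.72 FPKM, was the lowest of the family.

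Csf1 was not called under either treatment. It measured 404, 290, 122 and 167 FPKM in Media, 280, 213, 125 and 158 in Hevin and 475, 372, 126 and 151 in LPS, in numbers 1 to 4. The groups overlapped fully, and the spread lay between numbers, with the highest library 3.32 times the lowest in Media, 2.24 times in Hevin and 3.76 times in LPS. The log2 fold change was -0.25 ± 0.47 in Hevin (limma adjusted p = 0.843) and 0.13 ± 0.47 in LPS (adjusted p = 0.882, with a sign that turns without scaling factors and under quantile normalization). Within numbers 1 and 2 the Hevin value was 0.694 and 0.733 of the Media value, and within numbers 3 and 4 it was 1.03 and 0.944 of it. In the direct comparison of Hevin with LPS the difference was -0.38 ± 0.47 (adjusted p = 0.555, but 0.0317 with the replicate block). The other ligand of CSF1R, interleukin 34, had means of 0.128, 0.165 and 0.232 FPKM in Media, Hevin and LPS and did not pass the filter.

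Csf1 and Csf3 ran in opposite orders over the replicate numbers. In each of the 3 groups Csf3 was lowest in number 1, followed by numbers 2, 4 and 3, and Csf1 had the exact reverse order. Csf2 in LPS followed the order of Csf3. The endothelial marker sum had the order of Csf3 in all 3 groups, as did the sum of 6 fibroblast and mural cell markers, at 1.86 to 14.1 FPKM, while the microglia marker sum had the order of Csf1. Of the endothelial markers, the junction genes Cldn5 and Cdh5 ranged from 5.01 and 7.19 FPKM in libraries numbered 1 to 57.4 and 56.6 in LPS number 3, and none of the 6 was at 0 in any library. Within a number the endothelial sums of the groups were close (145, 153 and 162 FPKM for Media, Hevin and LPS in number 3) while Csf3 there was 56.3, 5.46 and 1004 FPKM. The part of these cells in the differences between numbers was not tested.

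**Figure D2:**
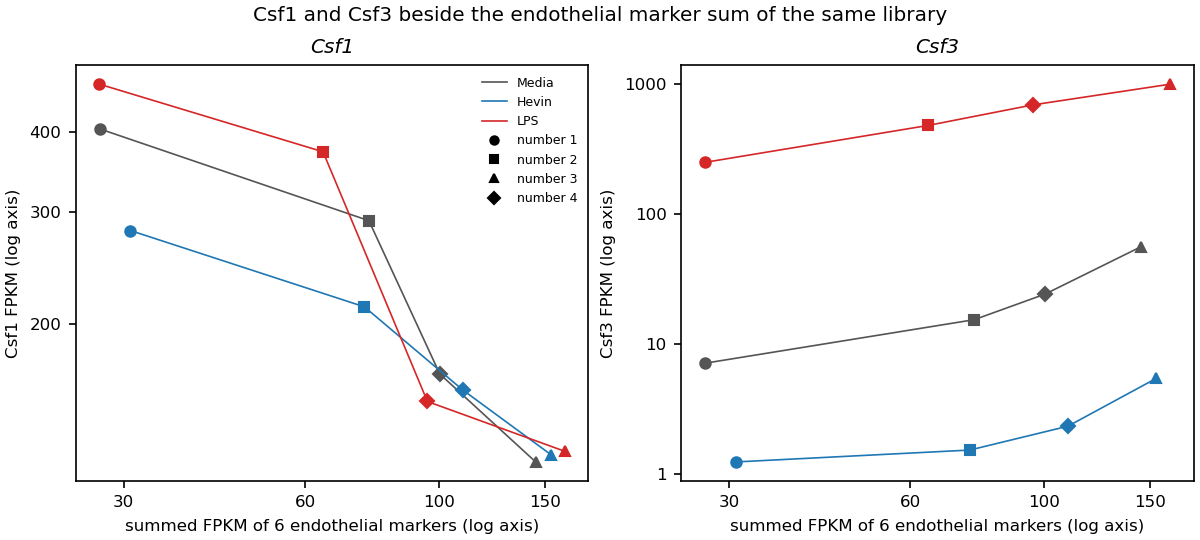
FPKM of Csf1 (left) and Csf3 (right) on log y axes against the summed FPKM of 6 endothelial markers in the same library on log x axes. Each point is 1 library, symbols give the replicate number, and lines join the 4 libraries of a group. Csf1 falls and Csf3 rises along the marker sum in each group, and the 3 Csf3 lines lie far apart at equal sums.

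Among the receptors, Csf1r rose in Hevin, and its LPS values were below those of Media in 4 of 4 numbers. The gene lies at chr18:61100598-61132149 on the plus strand, where its exons share 873 bases with Hmgxb3 on the opposite strand, a gene at 21.1 to 32.9 FPKM. Media libraries held 278, 224, 210 and 242 FPKM in numbers 1 to 4, Hevin libraries 460, 397, 401 and 475, and LPS libraries 242, 197, 150 and 178. Every Hevin library was above every Media library, whereas the LPS and Media libraries overlapped. The ratio of Hevin to Media was 1.65, 1.77, 1.91 and 1.96 in numbers 1 to 4. The log2 fold change in Hevin was 0.86 ± 0.14 (limma adjusted p = 0.00246), and 0.87 without the libraries numbered 2 (adjusted p = 0.0230). In LPS it was -0.33 ± 0.14 (adjusted p = 0.106, and 0.00965 with the replicate block), and the call was also reached without LPS number 1 (-0.45, adjusted p = 0.0231). The size of the change depended on the scaling, at -0.66 without scaling factors and -0.78 under quantile normalization, and it was called lower under both. In all, 6 of 25 alternatives called Csf1r lower in LPS. The microglia marker sum was higher in Hevin as well, with 5 of 12 markers called higher and 0 lower, beside 7.37% of all genes called. With the replicate block 10 were higher and 0 lower, beside 21.4% of all genes. The part of this sum in the Csf1r result was not tested. Tyrobp, which encodes an adaptor known to work with CSF1R in macrophages, was at 550 ± 28.7 FPKM in Media and 565 ± 39.8 in Hevin (adjusted p = 0.901), and fell in LPS to 356 ± 54.2 (log2 fold change -0.63 ± 0.11, adjusted p = 0.00107).

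The paralogous beta chain genes were both higher in Hevin. Csf2rb2 measured 40.5, 35.6, 31.7 and 31.1 FPKM in Media and 66.6, 58.2, 65.5 and 68.9 in Hevin, groups that did not overlap. It rose by 0.89 ± 0.16 (limma adjusted p = 0.00494). In LPS it stood at 51.8, 33.7, 27.4 and 36.4 FPKM, a range that contained the Media values (log2 fold change 0.07 ± 0.16, adjusted p = 0.792), with 2 of 4 numbers higher and a sign that turned under 3 other scalings. Csf2rb, the chain used by the GM-CSF receptor, measured 54.3, 43.1, 45.2 and 51.1 FPKM in Media and 75.0, 60.1, 82.4 and 92.5 in Hevin. These groups did not overlap either, and the difference of 0.66 ± 0.20 had an adjusted p of 0.0698 by limma and 0.00365 with the replicate block. It was also called without LPS number 1 (adjusted p = 0.0363) or LPS number 2 (adjusted p = 0.0393), with only Hevin and Media fitted (0.0199), under quantile normalization (0.0252), without scaling factors (0.0454) and with voom and the block together (4.48e-04). LPS libraries held 96.4, 49.8, 55.9 and 82.5 FPKM of Csf2rb, above the Media library of the same number in 4 of 4. The difference of 0.50 ± 0.20 had an adjusted p of 0.0837 (0.00773 with the replicate block, 0.0266 without LPS number 2 and 0.0447 without all libraries numbered 2).

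The alpha chain gene Csf2ra was not called under either treatment in the main fit. It measured 50.8, 50.4, 66.7 and 76.2 FPKM in Media, 37.6, 40.1, 52.4 and 59.5 in Hevin and 45.0, 51.5, 56.3 and 57.4 in LPS. The groups overlapped, yet each Hevin library was below the Media library of its number, at 0.741, 0.795, 0.785 and 0.780 of it. The log2 fold change in Hevin was -0.36 ± 0.17 (limma adjusted p = 0.256, and 0.00605 with the replicate block). In LPS it was -0.20 ± 0.17 (adjusted p = 0.441), lower in 3 of 4 numbers. It was called lower in LPS without scaling factors (-0.52, adjusted p = 0.0491) and with voom and the replicate block together (adjusted p = 0.0471).

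**Figure D3:**
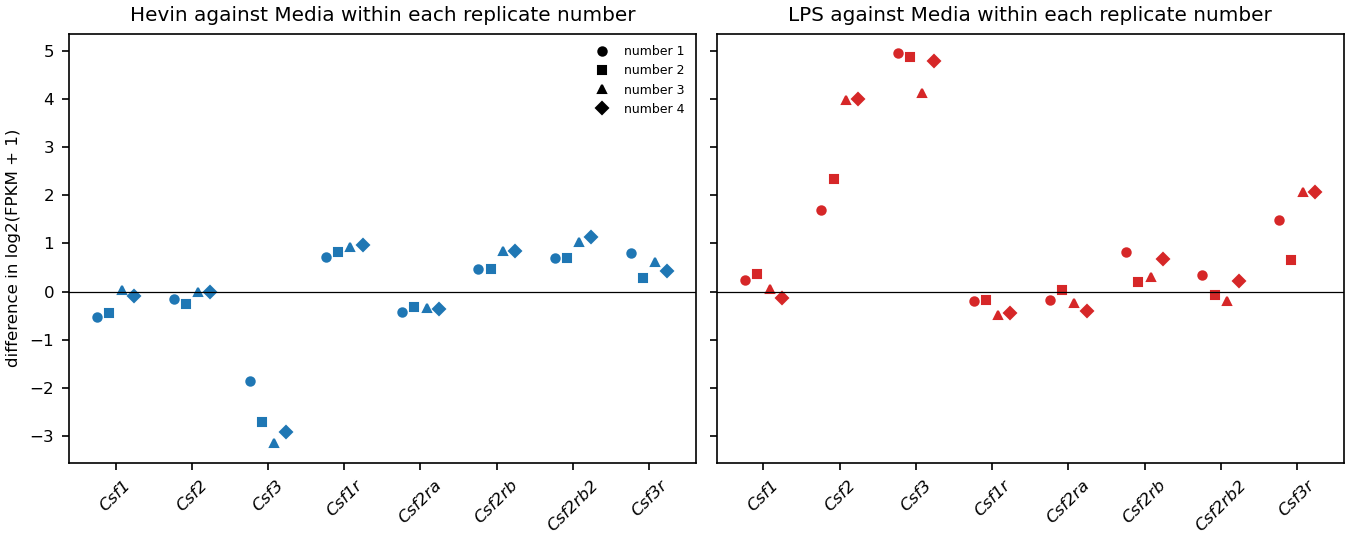
Difference in log2(FPKM + 1) between the treated and the Media library of the same replicate number (y axis) for each of the 8 genes (x axis), for Hevin (left) and LPS (right). Each symbol is 1 number and the line marks no difference. In Hevin all 4 numbers are above the line for Csf1r, Csf2rb, Csf2rb2 and Csf3r and below it for Csf3 and Csf2ra, and in LPS all 4 are above it for Csf3, Csf2, Csf3r and Csf2rb and below it for Csf1r.

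Ratios between subunits within a library remove differences shared by the genes. Csf2ra over the sum of Csf2rb and Csf2rb2 was 0.536, 0.640, 0.868 and 0.927 in Media and 0.266, 0.339, 0.354 and 0.369 in Hevin. The groups did not overlap (exact two-sided permutation test on log2 ratios, n = 4 and 4, p = 0.0286, the smallest this design can give; 0.0857 after adjustment over 6 tests). In LPS the ratio was 0.304, 0.617, 0.676 and 0.482, lower than in Media in 4 of 4 numbers but overlapping it (exact permutation p = 0.143, adjusted 0.143). Csf2rb over Csf2rb2 was 1.40 ± 0.183 in Media, 1.19 ± 0.138 in Hevin and 1.91 ± 0.335 in LPS. Between Hevin and LPS this ratio did not overlap (exact permutation p = 0.0286, adjusted 0.0857), and against Media it was lower in 4 of 4 numbers in Hevin (exact permutation p = 0.143) and higher in 4 of 4 in LPS (exact permutation p = 0.0571, adjusted 0.114). No ratio passed after adjustment. Paired by number, the differences had the same sign in 4 of 4 for all 6, and the exact paired permutation test gave p = 0.125 for each, the smallest that 4 pairs allow. Reads in the stretch printed above as shared by both genes bear on the second ratio.

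**Figure D4:**
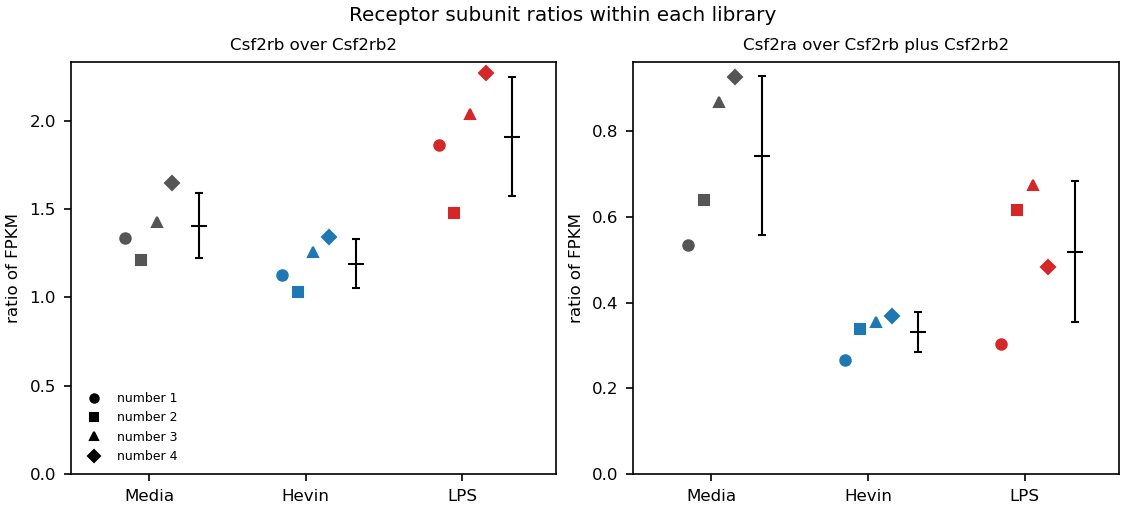
Ratio of FPKM within each library (y axes, linear from 0) of Csf2rb over Csf2rb2 (left) and of Csf2ra over the sum of both beta chain genes (right), by treatment group (x axis). Symbols give the replicate number and black bars the mean ± SD over 4 libraries. The 4 Hevin values on the right lie below every Media value, and on the left below every LPS value.

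Csf3r, the gene of the G-CSF receptor, rose in LPS together with the gene of its ligand. It measured 9.34, 9.81, 4.40 and 6.32 FPKM in Media, 16.9, 12.2, 7.24 and 8.86 in Hevin and 28.2, 16.0, 21.7 and 29.7 in LPS. Every LPS library was above every Media library. The log2 fold change was 1.57 ± 0.28 in LPS (limma adjusted p = 0.00177). In Hevin it was 0.53 ± 0.28 (adjusted p = 0.330), higher in 4 of 4 numbers, and it was called only with voom and the replicate block together (0.61, adjusted p = 0.0348). Neutrophils express this receptor, and the libraries numbered 2 carried their markers at 1981 to 2137 FPKM. Csf3r in number 2 was the highest of its group in Media but the lowest in LPS, and its LPS to Media ratio was 1.63 there beside 3.02, 4.93 and 4.70 in numbers 1, 3 and 4. Without the libraries numbered 2 the log2 fold change in LPS was 1.88 (adjusted p = 0.00287).

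Set directly against LPS, Hevin had 2 members higher and 3 lower, where 41.7% of all genes were called (22% higher and 19.7% lower). With the replicate block 2 were higher and 4 lower, beside 57.9% of all genes (29.9% and 28%). Csf3 differed by -7.34 ± 0.57 on the log2 scale (limma adjusted p = 1.40e-06) and the means were 2.64 and 608 FPKM. Csf2, whose call is again favoured by the filter, differed by -3.11 ± 0.39 (adjusted p = 6.85e-05), and Csf3r by -1.04 ± 0.28 (adjusted p = 0.0114), with Hevin lower in 4 of 4 numbers. Csf1r was higher in Hevin by 1.19 ± 0.14 (adjusted p = 3.91e-05) and Csf2rb2 by 0.81 ± 0.16 (adjusted p = 0.00173), both without overlap, as held for 37.5% of all genes. Csf2rb (0.16 ± 0.20, adjusted p = 0.566) and Csf2ra (-0.16 ± 0.17, adjusted p = 0.471) did not pass. The order of levels changed with it. Csf1r was above all other members in Hevin (433 ± 40.0 FPKM), and in LPS Csf1 (281 ± 170) overlapped both Csf3 (608 ± 320) and Csf1r (192 ± 38.6), while every Csf3 value was above every Csf1r value.

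Other genes of these pathways were read from the same fit. Receptors for these cytokines without a kinase of their own signal through JAK kinases and STAT factors, which SOCS proteins and Cish restrain. With the survival genes Pim1, Pim2, Bcl2l1 and Mcl1 the list held 14 genes. Of these, 1 was higher and 1 lower in Hevin (median log2 fold change -0.04), where 7.37% of all genes were called. In LPS 10 were higher and 0 lower (median 1.08), where 25.8% of all genes were called, 13.2% of all genes as higher. With the replicate block the counts were 1 and 2 in Hevin and 10 and 1 in LPS, beside 21.4% and 43.7% of all genes. Without scaling factors 10 were higher and 1 lower in LPS, where 736 of 11242 genes were called higher and 4990 lower. Jak2, the kinase bound by the beta chain, rose in Hevin from 22.3 ± 1.80 to 44.4 ± 2.85 FPKM (0.96 ± 0.13, limma adjusted p = 9.55e-04). The survival kinase gene Pim1 fell in Hevin from 111 ± 12.04 to 73.1 ± 6.17 FPKM (adjusted p = 0.00296) and rose in LPS to 560 ± 48.0 (adjusted p = 2.34e-08). Socs3, whose product restrains signalling of the G-CSF receptor, rose in LPS from 17.5 ± 3.43 to 429 ± 116 FPKM (4.51 ± 0.22, adjusted p = 7.48e-08).

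Of 19 signalling genes around the receptors, mainly kinases, phosphatases and adaptors, 3 were higher and 1 lower in Hevin (median log2 fold change 0.03), beside 7.37% of all genes called. In LPS 5 were higher and 4 lower (median 0.26), beside 25.8% of all genes. With the replicate block these counts were 4 and 4 in Hevin and 12 and 5 in LPS, beside 21.4% and 43.7% of all genes. The list includes the protease gene Adam17, which was called higher under both treatments. The balance in LPS turned with the scaling, to 3 higher and 7 lower without scaling factors (median -0.06) and 3 and 5 under quantile normalization. Of all 11242 genes, 736 were called higher and 4990 lower in the first of these settings, and 1118 and 1664 in the second. In Hevin the counts came to 1 higher and 0 lower without Media 3, Media 4 or Hevin 1, and to 1 and 1 without Hevin 2 or Hevin 4. Over all genes these Hevin fits called 308 to 368 higher and 203 to 289 lower. Dok2, which encodes an adaptor that dampens myeloid signalling, fell under both treatments, from 40.2 ± 18.3 FPKM to 12.5 ± 5.84 in Hevin (adjusted p = 0.0171) and 8.80 ± 2.42 in LPS (adjusted p = 0.00169), in comparisons that share the Media libraries. The Hevin call of Dok2 ended without Media 3 (adjusted p = 0.0593), Media 4 (0.0555) or Hevin 1 (0.0518). Pik3cg, a PI3 kinase subunit gene, rose in Hevin from 5.65 ± 0.922 to 10.4 ± 1.67 FPKM (adjusted p = 0.00554).

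Myeloid transcription factors control the receptor genes in blood cell development. Of 9 tested of 11, 2 were higher and 1 lower in Hevin (median log2 fold change -0.04), beside 7.37% of all genes called. In LPS 3 were higher and 2 lower (median 0.22), beside 25.8% of all genes. With the replicate block the counts were 2 and 3 in Hevin and 5 and 4 in LPS, beside 21.4% and 43.7% of all genes. Without scaling factors 3 were higher and 4 lower in LPS (median -0.11), and under quantile normalization 3 and 3 (median -0.22). Of all 11242 genes, 736 were called higher and 4990 lower in the first of these settings, and 1118 and 1664 in the second. Cebpa, known for driving myeloid receptor genes, rose in Hevin from 29.1 ± 8.12 to 124 ± 18.2 FPKM (2.08 ± 0.24, adjusted p = 2.07e-04), and Irf8, a factor of microglia and monocytes, from 25.8 ± 3.16 to 45.4 ± 6.57 (adjusted p = 0.00559). In LPS the related genes Cebpd and Cebpb rose from 4.01 ± 0.820 to 11.8 ± 3.83 FPKM (adjusted p = 7.61e-04) and from 49.7 ± 6.68 to 97.8 ± 29.2 (adjusted p = 0.00540).

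Csf2 and Csf3 mRNAs carry AU-rich elements through which decay factors shorten their life. Of 9 genes for proteins that shorten or lengthen the life of cytokine mRNAs, 1 was higher and 1 lower in Hevin (median log2 fold change 0.02), beside 7.37% of all genes called. In LPS 4 were higher and 0 lower (median 0.40), beside 25.8% of all genes. Elavl1, whose product stabilises such mRNAs, is among these 4. With the replicate block the counts were 2 and 1 in Hevin and 5 and 1 in LPS, beside 21.4% and 43.7% of all genes. Without scaling factors they were 2 and 2 in LPS (median 0.079), beside 736 higher and 4990 lower of all 11242 genes. Zfp36, which encodes tristetraprolin, fell in Hevin from 364 ± 33.2 to 283 ± 25.0 FPKM (adjusted p = 0.0264) and rose in LPS to 1526 ± 35.8 (2.07 ± 0.09, adjusted p = 2.34e-08). The Hevin call of Zfp36 ended under quantile normalization (-0.25, adjusted p = 0.146), without all libraries numbered 2 (adjusted p = 0.0914), and without Media 1, Media 4, Hevin 2 or Hevin 3 (adjusted p from 0.0752 to 0.0824). The RNase gene Zc3h12a was higher under both treatments, from 16.2 ± 1.01 FPKM to 22.5 ± 1.01 in Hevin (adjusted p = 0.00240) and 57.9 ± 2.57 in LPS (adjusted p = 1.92e-08). Of 10 genes associated with GM-CSF in myeloid cells, 7 were tested. In Hevin 0 were higher and 3 lower (median log2 fold change -0.54), beside 7.37% of all genes called. With the replicate block 5 were lower there, beside 21.4% of all genes. In LPS 2 were higher and 1 lower (median 0.14), so that 3 of 7 were called beside 25.8% of all genes. With the block 3 were higher and 1 lower in LPS, beside 43.7% of all genes. The LPS median was -0.15 without scaling factors. The mannose receptor gene Mrc1 fell in Hevin from 161 ± 16.8 to 71.7 ± 11.97 FPKM (adjusted p = 2.05e-04) and the nuclear receptor gene Pparg from 7.73 ± 1.27 to 2.96 ± 0.653 (adjusted p = 0.00323). Cish and the chemokine gene Ccl22 rose in LPS from 5.04 ± 0.940 to 25.9 ± 3.82 FPKM (adjusted p = 7.93e-07) and from 8.49 ± 2.98 to 35.7 ± 15.3 (adjusted p = 0.00238). Of the other users of the beta chain, Il3ra was at 5.18 ± 0.577 FPKM in Media, 4.12 ± 0.588 in Hevin (adjusted p = 0.1604, and 0.0491 with the replicate block) and 5.08 ± 0.351 in LPS (adjusted p = 0.919), while Il3, Il5 and Il5ra were not listed.

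The genes most like each member were found by the root mean square difference between profiles of log2(FPKM + 1) over the 12 libraries, each centred on its Media mean, as a description without a test. Csf3 was nearest to Serpinb2 (0.537), Cxcl1 and Il6, a plasminogen activator inhibitor gene, a neutrophil chemokine gene and a cytokine gene. Csf2 was nearest to Il19 (0.307), Has1 and Il12b, and Csf1 to Efr3b (0.151), Fam134b and Lair1. Csf1r was nearest to Ifi30 (0.102), Irf8 (0.137) and Usp2. Csf2ra had Aldh18a1 (0.102), Il1r2 and Palld as its nearest, Csf2rb had Comp (0.187), Hcls1 and St6galnac4, and Csf2rb2 had Luzp1 (0.158), Pacs1 and Abr. For Csf3r they were Rffl (0.260), the hexokinase gene Hk2 and Rnf149.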

How the data were processed

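Poly(A) RNA of 12 libraries was measured with a stranded kit as pairs of 100-base reads, per the labels' protocols. The values the authors deposited are FPKM, for 14541 genes. Tools in the submitters' processing notes, with no roles given, were edgeR 3.30.3, Subread 1.6.3 with featureCounts, Bowtie2 2.3.5.1, Trimmomatic 0.39 and FastQC 0.11.7, and the build was mm10. Neither the annotation nor strand use is stated there.

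In 100% of rows the FPKM were whole multiples of 1 read (within 0.1 reads), and the deposited scaling factors (0.804 to 1.16) matched factors computed from the recovered reads by the trimmed mean of M-values within 0.00124%. Libraries of a group differed beyond sampling noise (chi-square per degree of freedom of at least 12.6 in 18 pairs). Groups and numbers came from the titles.

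Comparisons used limma 3.58.1 (R 4.3.3), fitted to log2(FPKM + 1) with the trend option and no block. The fit was tried on simulated data without differences between numbers, which cannot show how it does on these libraries. Same-numbered libraries correlated in their deviations from the group means in all 12 pairs (r of 0.230 at the least and 0.784 at the most). Libraries numbered 3 and 4 also correlated across groups (r of 0.435 to 0.528), above Media 4 with LPS 4 (0.230) and Hevin 4 with LPS 4 (0.392). Different numbers had a mean r of -0.201. The main fit leaves the number out, and the fits with a block treat same-numbered libraries as paired. The SEs given are from the main fit and include the spread between numbers. For Csf1 in Hevin against Media the SE was 0.47, and 0.13 with the block. Blocked values stand beside results whose call, or number of called genes, they alter. Ratios were tested by exact permutation (scipy 1.17.1). Coding sequences were aligned with biopython 1.88.

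Members and lists were chosen with earlier results of these data known. Named besides the members were Il34, Tyrobp and the beta chain partners, and, per list and treatment, up to 2 called genes with the largest change, no overlap and a mean of at least 5 FPKM in 1 group. A gene named by this rule is not reported here. Alternatives were pseudocounts of 0.1 and 5, filters, scalings, no trend, only both groups compared, the block, voom on recovered reads, and leaving out libraries. The paired test of ratios was chosen after seeing the data.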

Additional observations from a re-analysis of the deposited data

How the results depend on the processing

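Of 597 values of the 8 genes under 25 alternatives, 556 kept direction and side of the threshold, 25 passed it in addition, 2 no longer passed and 14 turned in sign. The 2 that no longer passed were Csf3 in Hevin against Media with voom (-3.10) and without the libraries numbered 2 (-2.64). None of the values that turned was called. For Csf1 in LPS against Media they were -0.36 under quantile normalization, -0.20 without scaling factors, -0.16 without Media 3, -0.0084 without Media 4, -0.20 without LPS 1 and -0.082 without LPS 2, and leaving out 1 library gave -0.20 to 0.43. For Csf2rb2 in LPS against Media they were -0.086 under quantile normalization, -0.044 with upper quartile scaling, -0.25 without scaling factors and -0.094 without LPS 1 (up to 0.20 without another). Csf1 in Hevin against Media was 0.035 without Media 1 (down to -0.54 without Media 3), and against LPS 0.20 under quantile normalization. Csf2ra in Hevin against LPS was 0.093 under quantile normalization and 0.19 without scaling factors. The cause was not tested.

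The replicate block raised the genes called from 829 to 2406 for Hevin against Media and from 2897 to 4914 for LPS against Media, and the members called from 3 to 5 in each. With voom and the block these were 2729 and 4957 genes, and 6 members in each. Without scaling factors 5726 genes were called for LPS against Media, 736 higher and 4990 lower, and 5 members, 3 higher and 2 lower. The median log2 fold change of all genes there was -0.29, so values in LPS are relative to the scaling. Leaving out 1 library gave 511 (without Media 3) to 930 genes for Hevin against Media, with 532 without Hevin 4, and 3 to 4 members. A filter of at least 5 FPKM gave no value for Csf2, whose 10 reads in Media and 3 in Hevin limit any statement on it there.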
